A study of Homo sapiens with 6 samples.

Results

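Chromosomes 16, 17, 19 and 20 are 4 small human autosomes that were examined here as partners of a distant viewpoint, the FGF18 locus on chromosome 5. FGF18 encodes a secreted fibroblast growth factor. The members are all HindIII fragments of these 4 chromosomes that held at least 1 read in any of 6 4C-seq libraries. There were 16506 such fragments, of 206896 listed in the genome and 186498 listed outside chromosome 5. Chromosome 16 contributed 5170 fragments, chromosome 17 contributed 4652, chromosome 19 contributed 3006 and chromosome 20 contributed 3678. The quantity followed is the number of covered fragments (at least 1 read) per Mb, taken as a share of all covered fragments of the library outside chromosome 5.

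All libraries came from K562, an established human line from a chronic myelogenous leukaemia whose karyotype is aneuploid. Chromosome copy numbers of these cells were not used here. The 3 groups were EV, cells that received an empty vector, S1KO, cells in which silencer 1 was excised with CRISPR, and DKO, cells in which silencers 1 and 2 were both excised, each with 2 libraries that the series text calls biological replicates. The labels call EV untreated, although their treatment note names EV together with the excised cells, and they do not say whether each group is 1 clone or a pool, so an excision and the clone or pool that carries it cannot be told apart.

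The 4C-seq assay ligates pieces of fixed chromatin that lie close together and reads out which pieces were joined to 1 chosen piece, the viewpoint. Contacts with other chromosomes are sparse and each is usually sampled once, so a chromosome's contact level is read from how many of its fragments were caught and not from the reads on any 1 of them. Chromosomes rich in genes are known to lie towards the centre of the nucleus in many cell types and to be rich in GC bases.

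The label "gene-dense" was checked against the RefSeq annotation of GRCh38.p14. Chromosome 19 carried 24.8 protein-coding genes per Mb and chromosome 17 carried 14.1, the highest and the next of 21 autosomes outside chromosome 5. Chromosome 16 followed at rank 4 with 9.48 genes per Mb, and chromosome 20 at rank 6 with 8.37. Chromosome 11, at 9.68, and chromosome 22, at 8.88, lie among them but are not members. The label therefore sets chromosomes 17 and 19 apart from all other autosomes (2.96 to 9.68 genes per Mb), and does not set chromosomes 16 and 20 apart from chromosomes 11 and 22.

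HindIII cuts at the sequence AAGCTT, which reads the same on both strands, and this is the sequence that decides where a member fragment begins and ends. In the RefSeq promoters of GRCh38.p14 (250 bases before to 50 after a gene's start) it was present in 4.32% of 5770 promoters on the 4 chromosomes, in 6.15% of 26077 on the 16 other autosomes with promoters in the table, and in 5.84% of all 35116 in the table. The share was 4.49% on chromosome 16, 4.33% on chromosome 17, 4.59% on chromosome 19 and 3.47% on chromosome 20. The median GC content of these promoters was 62.3%, against 57.7% on those 16. No genome of hg19, the build named for the files, was at hand, so fragments without a read could not be listed and hg19 regions are given by position without sequence or gene annotation.

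The libraries held 708503 to 1919737 reads on 36612 to 47633 fragments, of which 29847 to 42352 lay outside chromosome 5. The 4 chromosomes took 3384 and 3926 covered fragments in EV, 3691 and 3066 in S1KO, and 3112 and 2454 in DKO. These were 8.22% to 9.27% of the fragments outside chromosome 5. DKO replicate 2 stood apart in its fragments, though not in its reads (1300415). It had the fewest fragments outside chromosome 5. Its share of fragments on chromosome 5 was the largest, 18.5% against 8.54% to 13.5% in the other libraries.

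Covered fragments were sparser on all 4 chromosomes than on the average autosome, in every library. The level of each chromosome was divided by the mean of the other 17 autosomes (all but 5, 16, 17, 19 and 20) in the same library, so that 1 marks the average; this ratio is called relative density below. All 24 values, 4 chromosomes in 6 libraries, were under 1. All 24 also had the upper bound of their 95% Wilson interval under 1, the highest bound being 0.963. These intervals rest on 411 to 1227 fragments, have half-widths of 5.52% to 9.61% of the value and cover counting error only. Of the other 17 autosomes, chromosomes 9, 13, 14, 18 and 22 were also under 1 in all 6 libraries.

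Chromosome 19, the most gene-dense human chromosome, had the lowest relative density of the 4 in each of the 6 libraries. It stood at 0.706 and 0.795 in EV, 0.728 and 0.752 in S1KO, and 0.801 and 0.634 in DKO. The mean was 0.736 ± 0.0621 (SD, n = 6), rank 20 of 21 autosomes, and the values of the 3 groups overlapped, with DKO holding both the highest and the lowest.

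Chromosome 17 stood at 0.824 and 0.858 in EV, 0.847 and 0.820 in S1KO, and 0.845 and 0.752 in DKO, with a mean of 0.824 ± 0.0383 (SD, n = 6). Chromosome 16 stood at 0.803 and 0.873 in EV, 0.866 and 0.831 in S1KO, and 0.832 and 0.783 in DKO, with a mean of 0.831 ± 0.0347 (SD, n = 6). For both chromosomes the groups overlapped and DKO replicate 2 was the lowest library.

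Chromosome 20 stood at 0.819 and 0.903 in EV, 0.819 and 0.791 in S1KO, and 0.888 and 0.856 in DKO, with a mean of 0.846 ± 0.0438 (SD, n = 6). Its 2 DKO values lay between the 2 EV values, and both were above both S1KO values. The means of chromosomes 16, 17 and 20 differed by less than the SD of any of them, and their order changed from library to library. Chromosomes 20, 16 and 17 took ranks 15, 16 and 17 of the 21 autosomes.

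Without DKO replicate 2, the means of chromosomes 16, 17 and 19 were 0.841, 0.839 and 0.756. The part of that library's low number of fragments in its low values was not tested.

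The 4 chromosomes had a median relative density of 0.828, against 1.03 over the other 17 autosomes, of which 7 were under 1. They did not lie outside the range of the others. Chromosome 9 was the lowest other autosome in all 6 libraries (mean 0.655) and chromosome 7 the highest (mean 1.32), and the SD over the 17 chromosome means was 0.164. Chromosome 13, which has the fewest genes per Mb of the 21, reached 0.815, between chromosomes 19 and 17. Chromosomes share libraries and are not replicates, so no test was made over them.

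**Figure D1:**
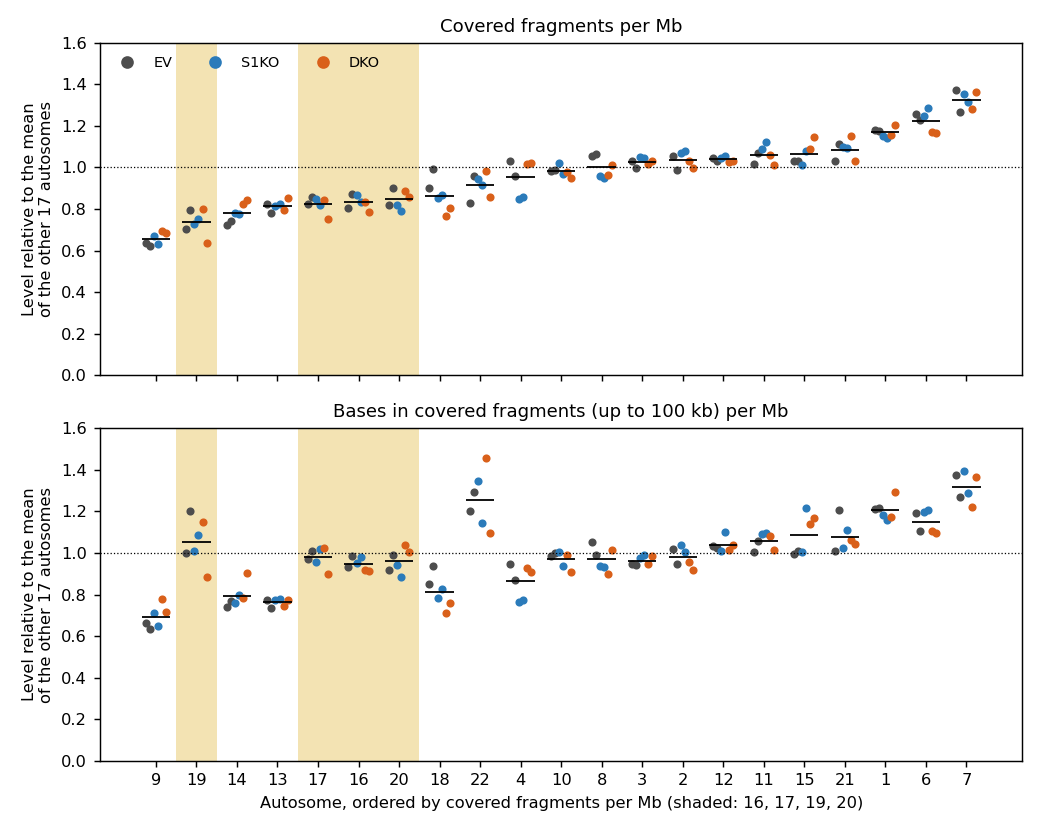
Levels of 21 autosomes relative to the mean of the other 17 autosomes in the same library (vertical axes, no unit), for covered fragments per Mb in the upper panel and for bases in covered fragments of up to 100 kb per Mb in the lower. Points are the 6 libraries, short bars their means, and shading marks chromosomes 16, 17, 19 and 20: all 24 of their points are under 1 in the upper panel and 15 of 24 in the lower.

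Reads gave the same picture as fragments. Relative to the mean of the other autosomes, reads per Mb were under 1 in all 24 cases, with a median over the 4 chromosomes of 0.796. The median number of reads per covered fragment was close on the 4 chromosomes and elsewhere in each library. It was 9 against 10 and 35 against 34 in EV, 17 against 19 and 21 against 22 in S1KO, and 31 against 33 and 21 against 22 in DKO. The members were thus fewer per Mb, while a covered fragment held about as many reads as one elsewhere.

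Bases gave another picture. Listed member fragments were longer: they averaged 3960 bp on chromosome 16, 4106 bp on chromosome 17, 5041 bp on chromosome 19 and 3920 bp on chromosome 20, against 3416 bp over the other 17 autosomes. Fragments above 10 kb made up 14.2% of those on chromosome 19 and 8.16% to 8.92% on the other 3, against 5.50%. These lengths are of fragments that had a read, leaving out those above 100 kb, 2 on the 4 chromosomes and 16 in all.

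Measured by the bases that covered fragments span, relative to the same 17 autosomes, chromosome 19 was at 1.05 ± 0.114 (SD, n = 6), above 1 in 4 of 6 libraries. It was highest of the 4 in 5 libraries and lowest in DKO replicate 2. Chromosome 17 was at 0.979 ± 0.0480, chromosome 20 at 0.962 ± 0.0579 and chromosome 16 at 0.947 ± 0.0306. Of the 24 values 15 were under 1, and the median of the 4 chromosomes was 0.970, against 0.982 over the other 17. Chromosome 22, which is also rich in genes and has long listed fragments (mean 4656 bp), moved the same way, from 0.913 by fragments to 1.26 by bases. On each of the 4 chromosomes the level by bases was thus nearer to 1 than the level by fragments. Chromosome 19 has 0 listed fragments above 100 kb. Its mean passed to the other side of 1 only with such fragments left out on the other autosomes, as here. With them included it was 0.973.

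The deficit lay in fragments under 10 kb. Within each length class, covered fragments per Mb were again set against the mean of the other 17 autosomes. Fragments under 1 kb stood at 0.733 on chromosome 19 to 0.780 on chromosome 20. Fragments of 1 to 2 kb were lowest on chromosome 19, at 0.555 ± 0.0496 (SD, n = 6), and at 0.710 to 0.776 on the other 3. Fragments of 2 to 5 kb, the most numerous class, stood at 0.603 on chromosome 19 and at 0.802 to 0.826 on the other 3. Fragments of 5 to 10 kb were nearer to 1, from 0.847 on chromosome 19 to 0.950 on chromosome 17. Fragments of 10 to 20 kb were above 1 on all 4, from 1.14 on chromosome 16 to 1.39 on chromosome 19.

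The class of 20 to 100 kb was smallest in number and largest in ratio. Chromosome 19 reached 5.62 ± 1.88 (SD, n = 6) on 141 fragments summed over the libraries, with single libraries between 4.05 and 9.26. Chromosome 17 was at 2.09 ± 0.695, chromosome 16 at 1.82 ± 0.667 and chromosome 20 at 1.43 ± 0.166, on 74, 69 and 39 fragments. How many fragments of each class the chromosomes hold with and without reads was not counted, so a fragment's chance of being caught is not measured by these ratios.

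**Figure D2:**
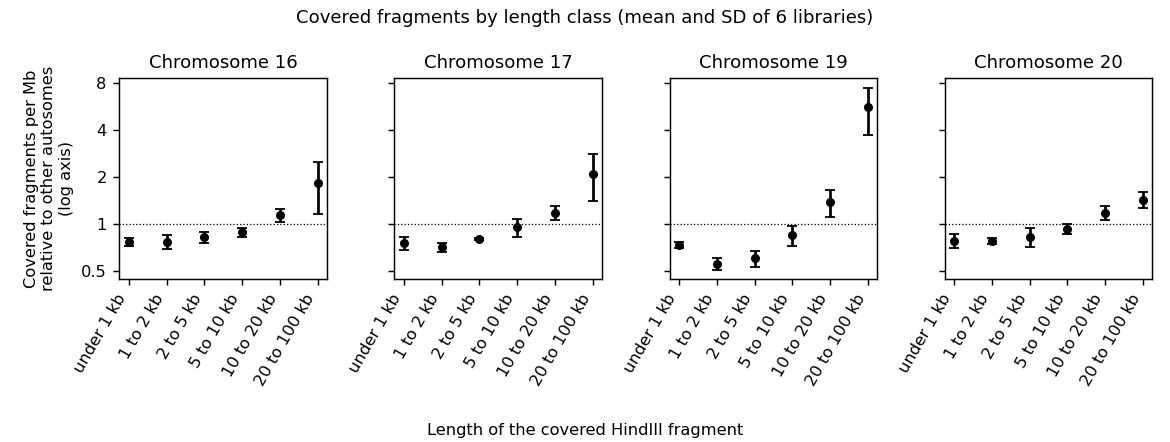
Covered fragments per Mb in 6 classes of fragment length (horizontal axis), relative to the mean of the other 17 autosomes (vertical axis, log scale), for each of the 4 chromosomes. Points are means and bars SDs over 6 libraries: classes under 10 kb lie below 1, classes above it lie above 1, and chromosome 19 reaches 5.62 in the longest class.

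Across the 21 autosomes, relative density had a Spearman correlation of -0.36 with the mean listed fragment length, of -0.05 with protein-coding genes per Mb and, over the 20 with promoters in the table, of 0.41 with the share of promoters holding AAGCTT. The level by bases had correlations of 0.22, 0.44 and -0.03 with the same 3 quantities. These are descriptions over chromosomes of the same 6 libraries. The order of the chromosomes by gene density thus had little in common with their order by covered fragments.

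Within the chromosomes the level was uneven. The genome was divided into 10-Mb windows counted from position 1, and a window's level was set against the mean window of the other 17 autosomes. A window's length counted any stretch without a listed fragment, on the 4 chromosomes and elsewhere, which lowers its level. The counts under 1 below were not repeated without such windows. Of 32 windows on the 4 chromosomes, 30 had more than 60 covered fragments over the 6 libraries. The 2 left out were the last, incomplete windows of chromosomes 16 and 17, at the ends of their long arms. Of these 30, 25 (83.3%) had a mean under 1, against 116 of 235 (49.4%) on the other autosomes. In 19 (63.3%) all 6 libraries were under 1, against 35.3% elsewhere. The median was 0.771 over the 30 windows and 1.00 over the 235. By bases, 11 of the 30 were under 1, with a median of 1.05, against 132 of 235 with a median of 0.951.

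On chromosome 16 the lowest window, chr16:30000001-40000000 (hg19), stood at 0.352 and 0.378 in EV, 0.415 and 0.346 in S1KO, and 0.305 and 0.285 in DKO. Both DKO values were under all others. Its neighbour chr16:40000001-50000000 was at 0.365 ± 0.0495 (SD, n = 6). The longest stretch of chromosome 16 without any listed fragment, chr16:35279121-46478559 (11.2 Mb), lies across these 2 windows. It is counted in their lengths, so both values understate the level of the parts that hold fragments. The level of those parts was not computed. The highest window was chr16:70000001-80000000, at 1.11 ± 0.0400, which was above 1 in all 6 libraries (1.06 to 1.18) and was the only such window of the 30.

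On chromosome 17 the lowest window was the end of the short arm, chr17:1-10000000. It stood at 0.521 and 0.576 in EV, 0.434 and 0.456 in S1KO, and 0.458 and 0.406 in DKO, and both EV values were above the other 4. By bases it remained low, at 0.648 ± 0.139 (SD, n = 6). The longest stretch of the chromosome without fragments, chr17:22253362-25278931 (3.03 Mb), lies outside it, 2 windows further on. The next windows, chr17:10000001-20000000 and chr17:20000001-30000000, were at 0.617 ± 0.0661 and 0.636 ± 0.0546, and the highest window, chr17:30000001-40000000, was at 1.04 ± 0.0884.

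All 6 windows of chromosome 19 were under 1 in all 6 libraries, with stretches without fragments counted in their length. The lowest was chr19:1-10000000, at 0.448 and 0.553 in EV, 0.497 and 0.559 in S1KO, and 0.580 and 0.479 in DKO, where the groups overlapped. By bases this window was at 0.991 ± 0.117 (SD, n = 6), and its listed fragments averaged 6630 bp.

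The highest window of chromosome 19, chr19:20000001-30000000, was at 0.855 ± 0.102 (SD, n = 6), although its length counts the longest stretch without fragments, chr19:24599963-27756863 (3.16 Mb). The level over the part that holds fragments is therefore higher and was not computed. This window was also the only one of the 6 with fragments shorter than those of the other autosomes, 2449 bp on average against 4730 to 6774 bp in the other 5. By bases the order turned, and this window became the lowest of the chromosome at 0.624 ± 0.0672. The neighbouring chr19:10000001-20000000, at 0.655 by fragments, became the highest at 1.30 ± 0.224.

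Chromosome 20 had its lowest window at chr20:20000001-30000000, with 0.443 and 0.496 in EV, 0.390 and 0.375 in S1KO, and 0.420 and 0.380 in DKO. Both EV values were above the other 4, and the longest stretch without fragments, chr20:26277870-29437135 (3.16 Mb), lies inside this window. Its highest window, chr20:30000001-40000000, follows directly, at 0.911 and 1.09 in EV, 1.11 and 1.01 in S1KO, and 1.21 and 1.36 in DKO. Both DKO values were above the other 4 there.

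The profile over the 30 windows was much alike in all libraries. Its Spearman correlation between libraries was 0.863 to 0.914 for the 3 pairs within a group and 0.764 to 0.913 for the 12 pairs between groups. Over the 30 windows, relative density had a Spearman correlation of -0.27 with the mean fragment length and the level by bases one of 0.48. Over the 235 other windows these were 0.04 and 0.42.

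**Figure D3:**
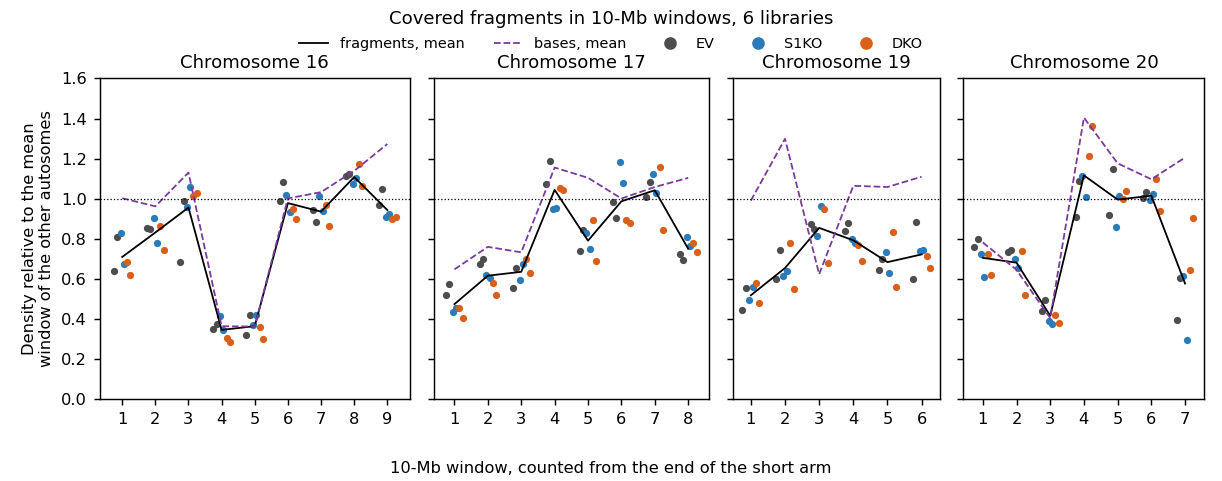
Covered fragments in 10-Mb windows of the 4 chromosomes (horizontal axis, window number from the end of the short arm), relative to the mean window of the other 17 autosomes (vertical axis, no unit). Points are the 6 libraries, the solid line their mean and the dashed line the mean by bases: windows 4 and 5 of chromosome 16, 1 to 3 of chromosome 17 and 1 to 3 of chromosome 20 are at most 0.783 by both measures. Chromosome 19 is under 1 by fragments in all 6 windows and by bases in windows 1 and 3 (0.991 and 0.624). Both measures count stretches without fragments in a window's length. The longest ones lie in windows 4 and 5 of chromosome 16 and in window 3 of chromosomes 17, 19 and 20.

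The low windows pointed to the arms, which were compared after the windows had been seen. Each chromosome was split at its longest stretch without a listed fragment, and that stretch was left out of the arm's length. The reference stayed the mean of the other 17 autosomes over their whole span, so arm values run higher than chromosome values. The shift is largest on chromosome 16, where 11.2 Mb of 90.1 Mb drop out and both arms lie above the value of the whole chromosome. Arm values are therefore set against each other and not against the whole chromosome. With the length of every chromosome counted in 1-Mb bins that hold a fragment, chromosomes 16 and 20 stood at 0.911 and 0.858.

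On chromosome 17 the short arm stood at 0.620 and 0.666 in EV, 0.549 and 0.552 in S1KO, and 0.573 and 0.514 in DKO. The mean was 0.579 ± 0.0549 (SD, n = 6), against 0.967 ± 0.0444 on the long arm. By bases the arms were at 0.730 and 1.13. On chromosome 20 the short arm stood at 0.757 and 0.791 in EV, 0.701 and 0.633 in S1KO, and 0.732 and 0.593 in DKO. The mean was 0.701 ± 0.0756, against 1.04 ± 0.0770 on the long arm, and by bases the arms were at 0.704 and 1.25. In both short arms the 2 EV values were above the other 4.

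The arms of chromosome 16 differed less, at 0.841 ± 0.0589 (SD, n = 6) and 1.04 ± 0.0363, and by bases at 1.01 and 1.14. The arms of chromosome 19 were at 0.732 ± 0.0832 and 0.813 ± 0.0662, and by bases at 1.14 and 1.10. Both arms of chromosome 19 were under 1 by fragments in every library.

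The ratio of short to long arm was 0.599 ± 0.0537 (SD, n = 6) on chromosome 17 and 0.679 ± 0.0971 on chromosome 20, under 1 in all 6 libraries. It was 0.812 ± 0.0504 on chromosome 16 and 0.902 ± 0.0808 on chromosome 19. By bases the ratios were 0.647, 0.568, 0.893 and 1.04 for chromosomes 17, 20, 16 and 19. Among 16 chromosomes with a listed short arm, chromosome 17 ranked 2 and chromosome 20 ranked 4 from the lowest. The other 12 ran from 0.471 to 1.61 with a median of 0.994, so the ratios of the members lay within their range.

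**Figure D4:**
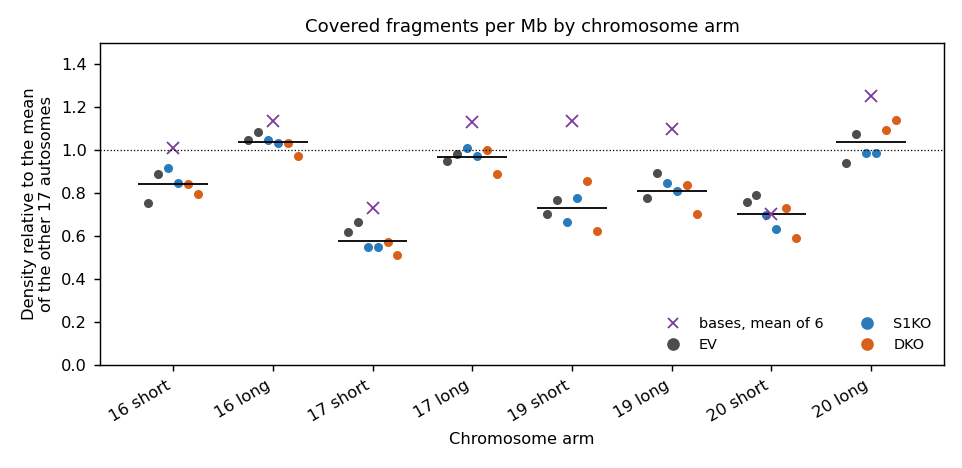
Covered fragments per Mb on the arms of the 4 chromosomes (horizontal axis), relative to the mean of the other 17 autosomes (vertical axis, no unit). Points are the 6 libraries, bars their means and crosses the mean by bases: the short arms of chromosomes 17 and 20 are the lowest by bases, at 0.730 and 0.704.

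The next question was whether excising silencer 1, or both silencers, changed how often the viewpoint met these chromosomes. No difference between groups passed the threshold on any of the 4. Numbers of covered fragments per chromosome were compared with edgeR's quasi-likelihood test, fitted over 22 chromosomes (the autosomes outside chromosome 5 and X) with all covered fragments outside chromosome 5 as library size. Called means an adjusted p (Benjamini-Hochberg) under 0.05. Since the 3 comparisons share libraries in pairs, their results are not independent of each other.

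For S1KO against EV, 0 of 4 chromosomes were called, against 9.09% of all 22. The log2 fold changes were 0.03 for chromosome 16, -0.01 for chromosome 17, -0.02 for chromosome 19 and -0.09 for chromosome 20, and the lowest edgeR adjusted p was 0.48. For DKO against EV, 0 of 4 were called, against 9.09%. Here the log2 fold changes were -0.04, -0.06, -0.05 and 0.03 in the same order, and the lowest edgeR adjusted p was 0.78. For DKO against S1KO, 0 of 4 were called, against 4.55%. The log2 fold changes were -0.07, -0.06, -0.03 and 0.12, and the lowest edgeR adjusted p was 0.25, for chromosome 20.

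The background itself rests on 2, 2 and 1 calls, which became 0 to 4, 0 to 1 and 0 to 2 with 1 library left out, and 1, 0 and 1 with DESeq2. None of the 12 differences reached an unadjusted p under 0.05, and DESeq2 also called 0 of 4 in each comparison. The intervals say what size could have been missed. The widest were those of chromosome 19, up to 0.847-fold to 1.13-fold for DKO against S1KO. The lowest bound was for chromosome 19 in DKO against EV, from 0.839-fold to 1.12-fold. The highest bound was for chromosome 20 in DKO against S1KO, from 0.984-fold to 1.20-fold. Changes of whole chromosomes beyond these bounds lay outside the 95% intervals, and changes within them were neither shown nor excluded for the 4. The median absolute log2 fold change of the 4 chromosomes was 0.02, 0.04 and 0.06 in the 3 comparisons, and 0.05 in each over the other chromosomes. Leaving out 1 library in turn changed the sign of 9 of the 12 differences, all but chromosome 20 in S1KO against EV and chromosomes 16 and 20 in DKO against S1KO.

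Arms gave the same counts. Over 39 arms, 0 of the 8 member arms were called for S1KO against EV (background 5.13%), for DKO against EV (10.3%) and for DKO against S1KO (5.13%). In each comparison 1 of the 8 had an unadjusted edgeR p under 0.05, against 7, 7 and 6 of all 39, and DESeq2 called 0 of 8. The short arm of chromosome 20 was at log2 -0.20 in S1KO against EV (edgeR adjusted p = 0.24) and at -0.21 in DKO against EV (edgeR adjusted p = 0.25). The short arm of chromosome 17 was at -0.22 and -0.23 (edgeR adjusted p = 0.30 and 0.25), and both comparisons share the EV libraries that were high there.

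The long arm of chromosome 20 was at log2 0.16 in DKO against EV (edgeR adjusted p = 0.25) and at 0.18 in DKO against S1KO (edgeR adjusted p = 0.20). It stood at 0.942 and 1.08 in EV, 0.988 and 0.989 in S1KO, and 1.09 and 1.14 in DKO, both DKO values being the highest. Without EV replicate 2, the higher of the EV libraries, DKO against EV rose to 0.26 and passed (edgeR adjusted p = 0.038). With the other libraries left out in turn it did not pass.

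**Figure D5:**
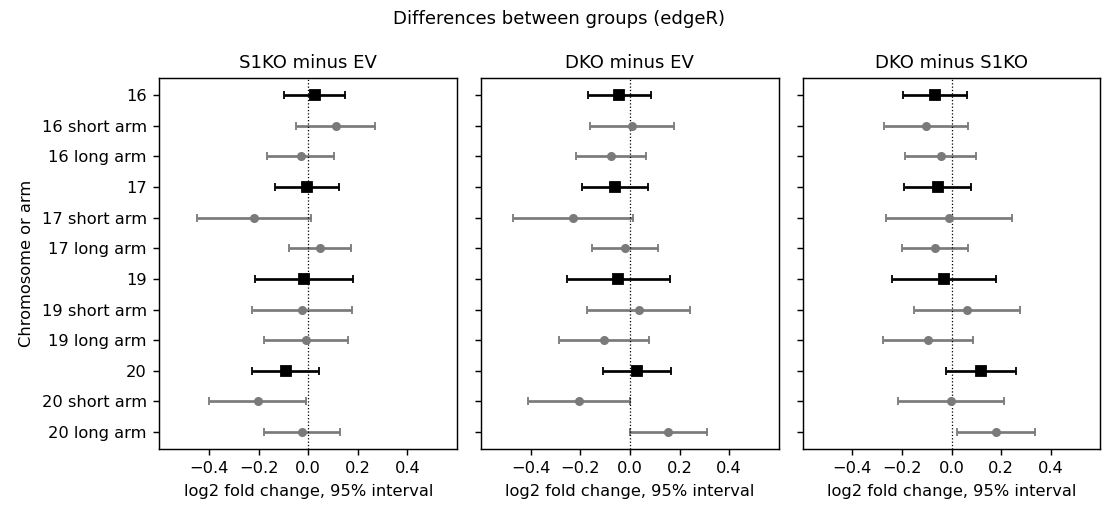
Log2 fold changes in covered fragments between groups (horizontal axes) with 95% intervals from edgeR, for the 4 chromosomes (squares) and their 8 arms (circles). No chromosome or arm passed an adjusted p of 0.05, and every whole-chromosome interval includes 0.

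Windows showed single shifts that did not pass. Over 281 windows outside chromosome 5, 0 of the 30 member windows were called for S1KO against EV (background 3.56%), for DKO against EV (1.78%) and for DKO against S1KO (0.0%). In each comparison 2 of the 30 (6.67%) had an unadjusted edgeR p under 0.05, against 11.7%, 8.90% and 10.3% of all windows. DESeq2 called 0 of the 30 in each comparison, with 0, 1 and 0 at an unadjusted p under 0.05. The lowest adjusted p values are given here as values that did not pass.

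The window chr20:30000001-40000000, highest in both DKO libraries, was at log2 0.37 in DKO against EV with an SE of 0.12 (edgeR adjusted p = 0.18). Leaving out single libraries, it lay between 0.25 and 0.50. Against S1KO it was at 0.28 (edgeR adjusted p = 0.38). The window chr17:50000001-60000000 stood at 0.983 and 0.905 in EV, 1.18 and 1.08 in S1KO, and 0.893 and 0.881 in DKO. Both S1KO values were the highest and both DKO values the lowest, with log2 0.27 in S1KO against EV (edgeR adjusted p = 0.27) and -0.35 in DKO against S1KO (edgeR adjusted p = 0.18).

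On the short arm of chromosome 17, chr17:1-10000000 was at log2 -0.30 in S1KO against EV (edgeR adjusted p = 0.50) and at -0.33 in DKO against EV (edgeR adjusted p = 0.53). The window chr17:10000001-20000000 was at -0.31 in DKO against EV (edgeR adjusted p = 0.52), and chr17:30000001-40000000 at -0.25 in S1KO against EV (edgeR adjusted p = 0.35). The end of chromosome 20, chr20:60000001-62960351, with 12 to 31 fragments a library, was at 0.71 in DKO against S1KO (edgeR adjusted p = 0.54) and moved from 0.33 to 1.36 as single libraries were left out. In the lowest window of chromosome 16 the DKO values were under the others, but it was not among the 3 lowest p values of any comparison.

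At the level of single fragments, libraries shared little. Of the 16506 members, 13697 (83.0%) were covered in 1 library, 2511 in 2, 278 in 3 and 20 in 4, and 0 in 5 or 6. Members covered in 3 or more libraries made up 1.81%, against 2.27% on the other autosomes. The shares were 1.95% on chromosome 16, 1.61% on chromosome 17, 1.90% on chromosome 19 and 1.77% on chromosome 20.

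The overlap between 2 libraries of a group was 168 to 295 fragments, 5.40% to 8.84% of a library's members (median 7.43%). Between libraries of different groups it was 165 to 318, 4.91% to 8.84% (median 6.74%). On the other autosomes the medians were 7.64% within a group and 7.74% between groups, with ranges of 6.27% to 8.79% and 6.09% to 8.78%. The ranges within and between groups overlap on both sets of chromosomes, and the difference was not tested.

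The 10 members described next were those with most reads among the 20 covered in 4 libraries. Chromosome 17 holds 5 of them. The fragment chr17:44966341-44974934 (8594 bp) had 17 and 50 reads in EV, 24 and 0 in S1KO, and 87 and 0 in DKO. The fragment chr16:25820160-25827666 had 0 and 57 reads in EV, 29 and 26 in S1KO, and 47 and 0 in DKO. The fragment chr20:31367950-31371123, in the highest window of chromosome 20, had 19 and 102 reads in EV, 0 and 31 in S1KO, and 0 and 2 in DKO. The only one on chromosome 19, chr19:37417754-37427972, had 0 and 6, 28 and 57, and 33 and 0.

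A further 3 were covered in both EV and both S1KO libraries and in neither DKO library. They are chr16:73885545-73889438, with 10, 114, 2 and 8 reads in those 4 libraries, chr17:58391122-58391978, with 40, 49, 6 and 35, and chr16:50002042-50006005, with 9, 80, 18 and 10. The remaining 3, chr17:36310940-36314717, chr17:39660241-39661836 and chr17:26919179-26920845, were each covered in all 3 groups. These fragments were selected by the ranking over 16506 members, and no test was made on them. How often fragments elsewhere were missing from both DKO libraries in this way was not counted. The DKO libraries also held the fewest fragments outside chromosome 5, 34182 and 29847, against 35317 to 42352 in the others.

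Few members had a q under 0.05, the cut used here for a call. At a q under 0.05 in the authors' deposited tables, 11 of 19633 listings of members (0.0560%) passed, against 197 of 195376 (0.101%) on the other autosomes. By library the members had 2 and 8 calls in EV, 1 and 0 in S1KO, and 0 and 0 in DKO. The other autosomes had 47 and 87, 21 and 40, and 2 and 0, so calls were fewer in DKO there as well. As shares, the members had 0.0591% and 0.204% in EV and 0.0271% and 0.0% in S1KO. The other autosomes had 0.134% and 0.236% in EV and 0.0577% and 0.129% in S1KO. In every library the 95% Wilson intervals of members and other autosomes overlapped. A count of 0 in 2454 to 3112 members has a 95% Wilson upper bound of 0.123% to 0.156%.

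The lowest q in the authors' deposited tables was 1.904e-05, for chr19:7800802-7804217 in S1KO replicate 1, with 189 reads. It was followed by chr16:88853712-88854750 in EV replicate 2, with 215 reads and a q of 0.000173, and chr20:3299956-3301501 in EV replicate 1, with 88 reads and a q of 0.00375. None of the 11 was listed in more than 1 other library, and 5 were listed in no other.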

How the data were processed

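HindIII was the first enzyme, DpnII the second and a MiSeq the sequencer, per the labels' protocols. The submitters' processing notes name Bowtie2 2.2.5 and the build hg19. The program that called interactions is not given in the sources used here. The authors deposited 1 file per library, listing each HindIII fragment with at least 1 read, its raw read count, and a p-value and q-value. A column headed RPMs by the authors was treated as a score and not used.

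Titles gave each library its group and replicate number, and unlisted fragments counted as 0. Mb are those from the first to the last listed fragment. Covered fragments were counted per chromosome, arm and 10-Mb window and tested with edgeR 4.0.16 in R 4.3.3 (all 6 libraries in 1 fit, Benjamini-Hochberg at 0.05), with DESeq2 1.42.0 as an alternative. With 2 libraries against 2, an exact two-sided permutation test cannot go below 0.333, so none was used. The scripts were tested on simulated data. Other values and plots came from scipy 1.17.1, pandas 2.3.3, numpy 2.4.6 and matplotlib 3.10.9 under Python 3.11.15. Replicate numbers are not known to pair the libraries and were not used as pairs. The deviations of same-numbered libraries had correlations of -0.18 to -0.05 over 281 windows, which cannot decide this with 2 libraries a group.

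The rule for named regions took the 4 chromosomes, the highest and lowest window of each, the windows past the threshold or else the 3 with the lowest p per comparison, and the 10 fragments covered in most libraries, ties broken by reads. The second-lowest windows of chromosomes 16 and 17 and the windows set beside a named one were chosen after their values were seen. The chromosomes and the rules were chosen with earlier results of these data known. The arms and the sums of bases up to 100 kb were added after seeing the data.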

Additional observations from a re-analysis of the deposited data

How the results depend on the processing

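The relative densities of the 4 chromosomes stayed under 1 with coverage minimums of 3 and 10 reads, with other references and with any 1 library left out. With 1-Mb bins that hold a fragment as the length, chromosome 16 rose to 0.911, and by reads it was at 0.791. By bases of all fragments the levels were 0.876, 0.910, 0.973 and 0.897 for chromosomes 16, 17, 19 and 20, and EV was at 1.03 on chromosome 19. By bases of fragments up to 100 kb they were 0.947, 0.979, 1.05 and 0.962, with 1.10 in EV, 1.05 in S1KO and 1.02 in DKO on chromosome 19 and 1.02 in DKO on chromosome 20. The cause was not tested.

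No whole chromosome and no window of the 4 passed the threshold under any of the 13 or 14 alternatives run, and the lowest adjusted p over these were 0.129 and 0.0646. The small signs of single chromosomes were less stable. S1KO against EV turned to -0.0422 (10 reads) and -0.00176 (TMM scaling) on chromosome 16, to 0.0109 on chromosome 17 and to 0.00219 on chromosome 19 (both 3 reads). With 1 library left out, S1KO against EV ran from -0.0376 to 0.0953 on chromosome 16, from -0.0388 to 0.0318 on 17 and from -0.103 to 0.0805 on 19. DKO against EV ran from -0.105 to 0.0278, from -0.152 to 0.0164, from -0.235 to 0.103 and from -0.0439 to 0.110 on 16, 17, 19 and 20. DKO against S1KO ran from -0.147 to 0.0214 on 17 and from -0.219 to 0.119 on 19. The 3 comparisons not named here kept their sign. Of the 8 arms, 0 to 1 were called for DKO against EV with 1 library left out.

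Over the 39 arms the 2, 4 and 2 calls became 2 to 4, 1 to 5 and 1 to 2 with 1 library left out, and 2, 0 and 1 with DESeq2. Calls over all 281 windows depended on the settings, so the background did too. For S1KO against EV the 10 calls became 4 with 3 or 10 reads, 0 with DESeq2 and 2 with 5-Mb windows. For DKO against EV the 5 calls became 2 with DESeq2. With 1 library left out they ran from 0 to 13 and from 1 to 4, and for DKO against S1KO from 0 to 3. Whether the replicate numbers pair the libraries is not known. With the replicate block the calls were 0 for S1KO against EV and 3 for DKO against EV, with 0 on the 4 chromosomes. Counts of 12 to 192 fragments a library limit single windows.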
